A study of Mus musculus with 24 samples.

Results

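Gene expression was compared between wild-type (WT) mouse progenitor libraries labelled MPP2 (n = 3) and WT libraries labelled MPP4 (n = 3), which were chosen by their titles and make up 6 of the 24 RNA sequencing libraries of the series. The other libraries were labelled KO MPP2, KO MPP4, WT HSC, WT MPP1, KO HSC and KO MPP1, with 3 of each, and the KO and WT MPP2- and MPP4-labelled libraries were also set side by side. Mice of both genotypes had received tamoxifen. Cells were sorted from marrow according to the growth protocol, whereas the tissue field reads blood. The gene removed in the KO mice, the age, strain and sex of the mice, the surface antigens used for sorting and whether each library is a separate mouse are not given in the labels, so p-values measure the spread between these libraries only, which may be technical.

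Multipotent progenitors (MPP) descend from haematopoietic stem cells (HSC) and differ in the blood lineages that they favour. In common schemes for mouse marrow, MPP2 cells favour megakaryocytes, which shed platelets, and erythroid cells; they carry CD150 (encoded by Slamf1) and lack the receptor tyrosine kinase FLT3. MPP4 cells, also called lymphoid-primed progenitors, carry FLT3, lack CD150 and have begun to transcribe lymphoid genes such as Dntt, which encodes terminal transferase, the enzyme that adds untemplated bases at antigen receptor joints. CD34, a surface sialomucin, is lower on long-term stem cells than on progenitors, and Itga2b encodes the integrin αIIb (CD41) of platelets and of progenitors close to that lineage.

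Against those definitions, the RNA of Flt3, Dntt, Slamf1 and Itga2b ran opposite to the labels. The libraries labelled MPP2 held the higher Flt3 and Dntt levels, with most lymphoid priming genes beside them. The libraries labelled MPP4 held the higher Slamf1 and Itga2b levels, with megakaryocyte and erythroid genes beside them. Cd34 and granulocyte genes were also higher with the MPP2 label, but the definitions above assign them to neither label. Exchanged labels and sorted cells that differed from the usual definitions cannot be told apart from these counts. The groups are therefore called MPP2-labelled and MPP4-labelled throughout. The same directions were measured for all 5 markers in the KO-labelled libraries, which share no library with the WT comparison, with adjusted p between 3.09e-21 (Flt3) and 0.000246 (Itga2b). In bulk RNA, a change in the number of cells of one kind cannot be told apart from a change in RNA per cell.

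**Figure D1:**
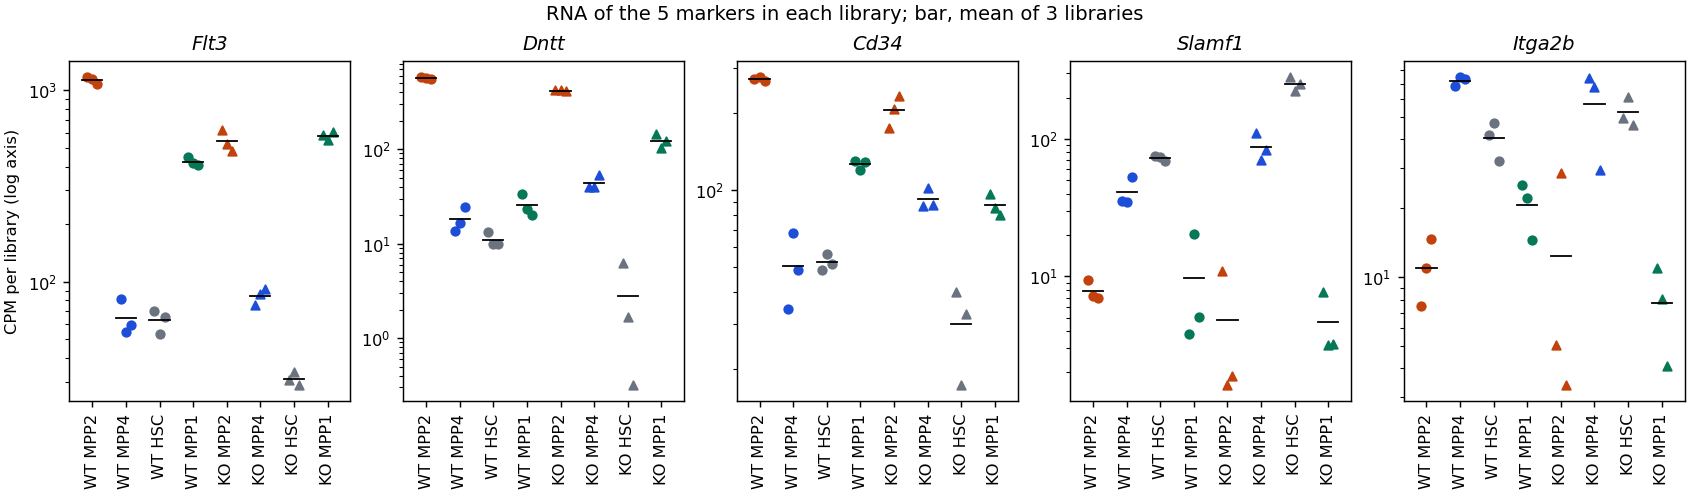
Level of each of the 5 markers in every library in CPM (counts scaled to the library total, log axis), with WT groups as circles, KO-labelled groups as triangles and a bar at the mean of 3 libraries. Flt3, Dntt and Cd34 lie higher in the WT MPP2-labelled than in the WT MPP4-labelled libraries with no overlap, and Slamf1 and Itga2b lie lower with no overlap.

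Flt3, the receptor whose presence defines lymphoid-primed progenitors, was at 1182, 1150 and 1080 CPM in the WT MPP2-labelled libraries, against 81.0, 54.5 and 59.1 CPM in the WT MPP4-labelled libraries. Every MPP2-labelled library was above every MPP4-labelled one. The level was 17.5-fold higher in the MPP2-labelled group (log2 fold change 4.13 ± 0.13 SE, adjusted p = 4.17e-27, edgeR quasi-likelihood test, Benjamini-Hochberg adjustment over all genes, as for each adjusted p here). Over the 8 groups the mean was highest in WT MPP2-labelled libraries (1138 ± 52.3 CPM, SD, n = 3). KO MPP1 (578 ± 27.9 CPM), KO MPP2 (544 ± 73.7 CPM) and WT MPP1 libraries (424 ± 20.1 CPM) came next, and the ranges of KO MPP1 and KO MPP2 libraries overlapped. KO MPP4 (84.6 ± 8.12 CPM), WT MPP4 (64.9 ± 14.2 CPM) and WT HSC (63.3 ± 8.79 CPM) libraries overlapped in turn with their neighbour in that order, above KO HSC libraries (31.1 ± 2.54 CPM).

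Dntt was at 586, 563 and 556 CPM in WT MPP2-labelled libraries, against 13.5, 16.4 and 24.3 CPM in WT MPP4-labelled libraries. The gap between the lowest MPP2-labelled and the highest MPP4-labelled library was far wider than the spread inside either group, with a log2 fold change of 4.99 ± 0.24 (adjusted p = 4.85e-21). Dntt thus separated the groups by 31.7-fold. WT MPP2 (568 ± 16.0 CPM) and KO MPP2 libraries (417 ± 8.56 CPM) were the top 2 of the 8 groups, and did not overlap. KO MPP1 libraries averaged 123 ± 21.4 CPM and KO MPP4 libraries 44.1 ± 7.61 CPM. WT MPP1 (25.4 ± 6.96 CPM) and WT MPP4 libraries (18.0 ± 5.58 CPM) overlapped, and WT HSC (11.0 ± 1.96 CPM) and KO HSC (2.76 ± 3.12 CPM) were lowest, with ranges that did not overlap.

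Cd34 was at 272, 277 and 267 CPM in WT MPP2-labelled libraries, against 34.4, 68.2 and 48.5 CPM in WT MPP4-labelled libraries. It rose by 2.43 ± 0.19 on the log2 scale (adjusted p = 1.37e-13), with no overlap. The WT MPP4-labelled mean (50.3 ± 17.0 CPM) lay beside that of WT HSC (52.1 ± 3.91 CPM), whose range fell inside it. KO MPP2 (205 ± 28.6 CPM) and WT MPP1 (126 ± 5.40 CPM) libraries were the next highest after WT MPP2 libraries (272 ± 5.06 CPM), without overlap. KO MPP4 (92.0 ± 8.78 CPM) and KO MPP1 (87.0 ± 8.52 CPM) libraries overlapped, and KO HSC libraries were lowest (30.1 ± 11.7 CPM), in a range that overlapped with that of WT MPP4 libraries.

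Slamf1, the gene of CD150, was at 9.36, 7.20 and 7.01 CPM in WT MPP2-labelled libraries, against 35.6, 34.8 and 53.0 CPM in WT MPP4-labelled libraries. All 3 MPP2-labelled libraries were lower (log2 fold change -2.38 ± 0.39, adjusted p = 5.67e-06). Over the 8 groups, KO HSC (252 ± 31.1 CPM), KO MPP4 (87.5 ± 20.6 CPM), WT HSC (72.7 ± 3.43 CPM) and WT MPP4 (41.1 ± 10.3 CPM) libraries stood above all MPP1- and MPP2-labelled groups, whose means ran from 4.69 to 9.70 CPM and whose ranges overlapped. Itga2b was at 7.49, 10.9 and 14.7 CPM in WT MPP2-labelled libraries, against 68.2, 75.3 and 73.5 CPM in WT MPP4-labelled libraries. The WT MPP4-labelled mean of 72.3 ± 3.70 CPM was the highest of the 8 groups, though KO MPP4 libraries (57.2 ± 24.3 CPM) overlapped with it. KO HSC (52.5 ± 7.70 CPM) and WT HSC libraries (40.5 ± 7.56 CPM) followed and overlapped. WT MPP1 (20.7 ± 5.53 CPM), KO MPP2 (12.4 ± 14.1 CPM), WT MPP2 (11.0 ± 3.59 CPM) and KO MPP1 libraries (7.72 ± 3.48 CPM) were lowest, each overlapping with the next. Itga2b fell by 2.71 ± 0.43 on the log2 scale (adjusted p = 3.4e-06).

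Total counts were 3442027 to 3807003 in WT MPP2-labelled and 2540511 to 3130018 in WT MPP4-labelled libraries, with at least 1 count for 26856 to 27178 genes in the MPP2-labelled and 28623 to 28804 genes in the MPP4-labelled libraries. Counts on 1490 olfactory and vomeronasal receptor genes, whose products detect odours and pheromones and which blood cells do not use, were lower in the MPP2-labelled libraries, at 3968 to 4280, against 7610 to 9559 in the MPP4-labelled libraries. Taking their counts per kb of span as the density of background everywhere, background made up 11.6 ± 0.157% of all counts with the MPP2 label and 30.6 ± 0.295% with the MPP4 label (SD, n = 3). Counts of called genes in the WT comparison are therefore given, over all genes and for each list, as deposited and again after this background was subtracted from every gene. Between libraries of a group, a chi-square per gene of 4.19 to 4.76 (MPP2-labelled) and 6.89 to 7.58 (MPP4-labelled) was above the value of 1 that sampling alone gives, so no library was a copy of another.

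Across 21964 genes tested, 3643 (16.6%) were higher and 2344 (10.7%) lower in WT MPP2-labelled than in WT MPP4-labelled libraries at an adjusted p under 0.05. After background subtraction, 1452 (7.85%) of 18508 genes were higher and 567 (3.06%) lower. Without regard to p, every MPP2-labelled library lay above every MPP4-labelled one for 5124 genes (23.3%), and below for 4810 (21.9%). A lack of overlap, given for single genes throughout, was therefore common over all genes. The called shares here are those to set beside each list count below. Of the genes called as deposited, 1395 higher and 430 lower ones were also called in the same direction after subtraction. The balance between directions depended on scaling and test, with 2426 higher and 3004 lower genes under median-of-ratios size factors, 2744 and 3922 in DESeq2, 3105 and 3676 in a fit of the compared libraries only, and 3829 and 3605 in limma-voom. The median log2 fold change over all genes tested was -0.14, and -0.35 with median-of-ratios size factors, so small fold changes carry that uncertainty of scale.

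Many of the lower calls were genes of high estimated background. Genes with an estimated background of 50% or more of their counts in either group made up 218 of the higher and 1958 of the lower calls. In 870 genes with background under 5% in both groups, 519 were higher and 39 lower, with a median log2 fold change of 0.69 as deposited and 0.23 after subtraction. The plot of fold change against background shows the lower calls gathering towards the right.

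**Figure D2:**
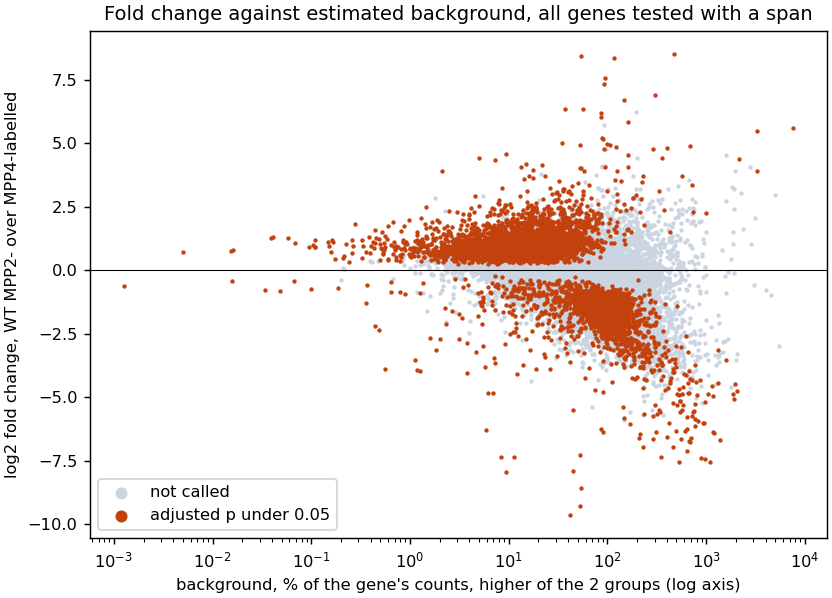
Log2 fold change of WT MPP2-labelled over WT MPP4-labelled libraries (vertical axis) against the estimated background as a percentage of a gene's counts, the higher of both groups (horizontal log axis, where the estimate can pass 100%); each point is a gene and coloured points have an adjusted p under 0.05. Of the lower calls, 1958 of 2344 lie at a background of 50% or more, against 218 of 3643 higher calls.

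Promoters are shown for 2 genes of the erythroid and platelet lineages and 2 of the granulocyte lineage, because the factors that govern these lineages bind known letters: GATA factors bind AGATAA or TGATAA, and PU.1 (encoded by Spi1) binds sites that hold GAGGAAG. Both strands were searched from 250 bases before to 50 bases after each start in RefSeq's GRCm38.p6 models, and capitals mark matches. Epor encodes the erythropoietin receptor, Gp5 a platelet membrane glycoprotein, Mpo myeloperoxidase and Elane neutrophil elastase.
Epor, chr9:21963527-21963826, minus strand: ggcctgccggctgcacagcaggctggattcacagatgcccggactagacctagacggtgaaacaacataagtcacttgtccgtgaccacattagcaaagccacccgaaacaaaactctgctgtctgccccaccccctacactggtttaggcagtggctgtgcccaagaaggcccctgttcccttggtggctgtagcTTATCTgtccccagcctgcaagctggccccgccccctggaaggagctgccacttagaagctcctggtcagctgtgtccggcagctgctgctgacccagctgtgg
Gp5, chr16:30310732-30311031, minus strand: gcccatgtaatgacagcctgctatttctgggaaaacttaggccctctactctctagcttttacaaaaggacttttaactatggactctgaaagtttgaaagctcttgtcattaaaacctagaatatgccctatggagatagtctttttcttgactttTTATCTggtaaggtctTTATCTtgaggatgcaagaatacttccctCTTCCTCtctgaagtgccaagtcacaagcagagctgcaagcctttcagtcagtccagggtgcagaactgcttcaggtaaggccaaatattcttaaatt
Mpo, chr11:87793534-87793833, plus strand: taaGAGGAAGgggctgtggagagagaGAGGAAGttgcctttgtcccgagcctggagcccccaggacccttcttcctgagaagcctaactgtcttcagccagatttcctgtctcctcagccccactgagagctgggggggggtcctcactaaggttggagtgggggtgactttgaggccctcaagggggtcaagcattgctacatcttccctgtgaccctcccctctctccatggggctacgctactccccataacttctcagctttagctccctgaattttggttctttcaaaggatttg
Elane, chr10:79886062-79886361, plus strand: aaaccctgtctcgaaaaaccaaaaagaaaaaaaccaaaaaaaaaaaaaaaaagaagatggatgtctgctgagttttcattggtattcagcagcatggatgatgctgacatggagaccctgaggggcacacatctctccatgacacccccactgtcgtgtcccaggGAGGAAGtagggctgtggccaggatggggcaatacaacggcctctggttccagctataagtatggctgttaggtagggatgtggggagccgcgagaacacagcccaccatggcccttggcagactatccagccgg
The Epor window held 1 GATA match, and the Gp5 window 2 GATA matches and 1 PU.1 match. The Mpo window held 2 PU.1 matches and the Elane window 1. Among 27025 promoters, 19.0% held a GATA match and 13.5% a PU.1 match, and among those of 15185 tested genes 14.2% and 13.2% did. Promoters were also taken of genes changed at least 2-fold as deposited and with an adjusted p under 0.05 both as deposited and after subtraction. Among these, a GATA match stood in 9.8% of 765 higher genes and 16.7% of 216 lower genes. A PU.1 match stood in 18.4% of the higher and 11.6% of the lower ones. These shares are descriptions of letters in a window and show no binding.

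Lymphoid priming genes were higher in MPP2-labelled libraries. Of 30 genes listed, 25 passed the filter on low counts, and 17 of them were higher, 1 lower and 7 not called, with a median log2 fold change of 1.7, against 16.6% higher, 10.7% lower and a median of -0.14 over all genes tested. After subtraction, 13 were higher and 1 lower of 24. The markers Flt3 and Dntt are among the 17, so the count is not independent of them. This list was chosen with earlier results of these data known. The summed level of the list was 8207 to 8502 CPM in MPP2-labelled libraries and 3082 to 3432 CPM in MPP4-labelled libraries. Rag1 and Rag2, which encode the recombinase that cuts antigen receptor genes, were listed at 0 in all 24 libraries, as were 33 of 517 listed genes; 29 of those 33 lie wholly inside another gene in the GENCODE M21 annotation, so their 0 is no measure of expression.

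Satb1, a chromatin organiser needed for early lymphoid specification, was at 564, 615 and 577 CPM in WT MPP2-labelled libraries, against 32.3, 44.6 and 31.8 CPM in WT MPP4-labelled libraries. Arpp21, a gene of early lymphoid progenitors, was at 1034, 948 and 1129 CPM in MPP2-labelled libraries, against 91.8, 58.3 and 43.7 CPM in MPP4-labelled libraries. The groups did not overlap for either gene, with log2 fold changes of 4.01 ± 0.17 (adjusted p = 7.83e-23) and 4.0 ± 0.20 (adjusted p = 1.78e-20). Their MPP4-labelled levels were 53.8% and 53.2% background by the estimate, against 1.62% and 1.61% in MPP2-labelled libraries, and both remained higher after subtraction (4.61 and 4.59).

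Notch1, the receptor that directs progenitors to the T lineage, was at 298, 283 and 299 CPM in MPP2-labelled libraries, against 28.1, 35.3 and 50.2 CPM in MPP4-labelled libraries (log2 fold change 2.96 ± 0.19, adjusted p = 1.04e-16). Ikzf1, which encodes the lymphoid factor Ikaros, was at 1720, 1551 and 1629 CPM in MPP2-labelled libraries, against 717, 711 and 789 CPM in MPP4-labelled libraries (1.14 ± 0.07, adjusted p = 3.85e-17). For both genes every MPP2-labelled library lay above every MPP4-labelled one. Il7r, the interleukin-7 receptor chain that B and T precursors need, was chosen after its values were seen. It was at 70.8, 83.2 and 67.0 CPM in MPP2-labelled libraries, against 33.2, 26.8 and 33.1 CPM in MPP4-labelled libraries (log2 fold change 1.25 ± 0.32, adjusted p = 0.00231), and was not called after subtraction (0.95, adjusted p = 0.18). Ccr9, a listed chemokine receptor gene also chosen after its values were seen, ran the other way without a call. Its levels were 6.9, 5.5 and 6.1 CPM in MPP2-labelled libraries, against 13.8, 23.3 and 12.3 CPM in MPP4-labelled libraries.

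Ighm, the immunoglobulin µ heavy chain, was the listed lymphoid gene called lower. It was at 982, 996 and 862 CPM in MPP2-labelled libraries, against 1188, 1226 and 1453 CPM in MPP4-labelled libraries (log2 fold change -0.44 ± 0.11, adjusted p = 0.00113). The plasma cell list was mixed, with 1 of its 9 tested members higher, 3 lower and 5 not called, and 0 higher and 2 lower after subtraction. Shares over all genes tested were 16.6% higher and 10.7% lower, and 7.85% and 3.06% after subtraction. Igha, the immunoglobulin α heavy chain that plasma cells secrete, was at 51.8, 39.5 and 42.7 CPM in MPP2-labelled libraries, against 670, 654 and 724 CPM in MPP4-labelled libraries (-3.94 ± 0.18, adjusted p = 6.49e-22). Jchain, which joins secreted IgA and IgM, was at 17.5, 9.50 and 22.3 CPM in MPP2-labelled libraries, against 49.0, 56.9 and 68.3 CPM in MPP4-labelled libraries (-1.82 ± 0.41, adjusted p = 0.000536). Xbp1, a factor of secretory cells that plasma cells need, was the member called higher, at 66.5, 53.6 and 51.6 CPM in MPP2-labelled libraries, against 29.9, 29.6 and 24.6 CPM in MPP4-labelled libraries (1.03 ± 0.21, adjusted p = 0.000149), and was not called after subtraction (0.58, adjusted p = 0.0553). The plasma cell list summed to 136 to 160 CPM in MPP2-labelled and 781 to 875 CPM in MPP4-labelled libraries. Most of that gap was Igha, and the other 8 members summed to 96.8 to 114 CPM in MPP2-labelled and 126 to 150.3 CPM in MPP4-labelled libraries. The part of plasma cells in these differences was not tested.

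Immunoglobulin V segments, the variable exons that one B lineage clone uses, took up much of the extreme end of the fold changes. Of 346 segments, 80 were tested, 18 were higher and 24 lower, and 8 and 16 of 77 after subtraction. Over all genes tested, 16.6% were higher and 10.7% lower, and 7.85% and 3.06% after subtraction. In all 3 MPP2-labelled libraries 4 segments had at least 20 counts with at most 3 in every MPP4-labelled library, and 8 showed the reverse. Ighv7-1 was at 90.8, 80.6 and 74.9 CPM in MPP2-labelled libraries, against 0.299, 0.274 and 0 CPM in MPP4-labelled libraries. Ighv9-1 was at 0 CPM in all MPP2-labelled libraries, against 30.5, 31.5 and 28.7 CPM in MPP4-labelled libraries. All 8 segments with at least 50 counts in some MPP2-labelled library, and all 20 in MPP4-labelled ones, were within 3-fold in the 3 libraries of that group. V segments resemble each other, so reads can be assigned to the wrong one.

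The B lineage list had 2 of 13 tested members higher and 1 lower, and 1 and 0 of 12 after subtraction, and its median changed sign between scalings, from 0.0845 as reported to -0.122 with median-of-ratios size factors. These counts were near or below the shares over all genes (16.6% higher and 10.7% lower, and 7.85% and 3.06% after subtraction). Of 17 T and NK genes tested, 1 was higher and 2 were lower, near or below the shares over all genes, and 1 and 0 of 15 after subtraction. The median of the T and NK list was still low, at -1.52, and -1.88 after subtraction, against -0.14 over all genes tested. DESeq2 called 1 of its members higher and 4 lower, and edgeR had 1 and 5 at an unadjusted p under 0.05. Pax5, the factor that fixes B lineage identity, was at 44.0, 40.9 and 42.7 CPM in MPP2-labelled libraries, against 83.1, 68.2 and 78.2 CPM in MPP4-labelled libraries, with background estimated at 42.7% of its MPP2-labelled and 49.5% of its MPP4-labelled level, and a log2 fold change of -0.85 ± 0.32 (adjusted p = 0.0473). That call was lost after subtraction (adjusted p = 0.607), with a replicate block (adjusted p = 0.0537) and without any one of the 6 libraries (adjusted p = 0.0605 to 0.132).

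**Figure D3:**
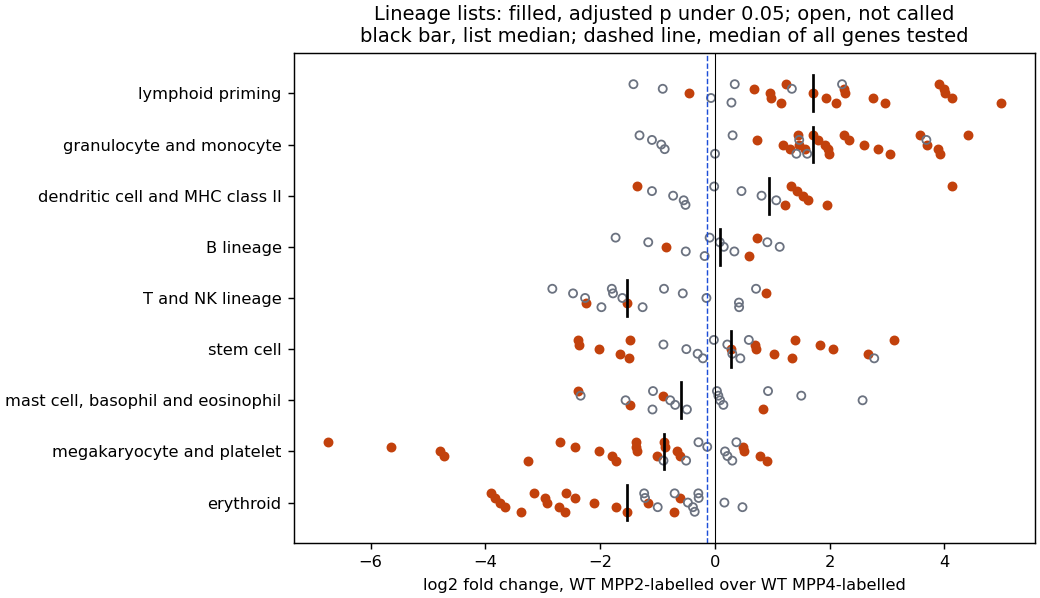
Log2 fold change of WT MPP2-labelled over WT MPP4-labelled libraries for each tested member of 9 lineage lists; filled points have an adjusted p under 0.05, black bars are list medians and the dashed line is the median of all genes tested. Medians were 1.7 for lymphoid priming and 1.72 for granulocyte and monocyte genes. They were -0.892 for megakaryocyte and platelet, -1.54 for erythroid and -1.52 for T and NK genes.

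Granulocyte and monocyte genes were also higher in MPP2-labelled libraries. Of 31 tested, 21 were higher, 0 lower and 10 not called, with a median log2 fold change of 1.72, and 15 of 30 were higher after subtraction. Over all genes tested, 16.6% were higher, and 7.85% after subtraction. The list summed to 4087 to 4250 CPM in MPP2-labelled libraries and 844 to 904 CPM in MPP4-labelled libraries. At an unadjusted p under 0.05, edgeR also had 0 members lower and 23 higher, and DESeq2 and limma-voom called 0 lower, and 20 and 23 higher.

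Mpo, the peroxidase of azurophil granules whose transcript appears early in myeloid progenitors, was at 1580, 1480 and 1519 CPM in WT MPP2-labelled libraries, against 99.5, 109 and 100.4 CPM in WT MPP4-labelled libraries. It was 14.8-fold higher (log2 fold change 3.89 ± 0.13, adjusted p = 5.43e-26), with background at 0.0694% of its counts with the MPP2 label and 2.13% with the MPP4 label. Elane was at 180, 152 and 186 CPM in MPP2-labelled libraries, against 6.28, 9.03 and 8.88 CPM in MPP4-labelled libraries (4.41 ± 0.36, adjusted p = 2.37e-13). The neutrophil serine protease genes Prtn3 and Ctsg, chosen after their values were seen, changed by 3.92 ± 0.62 and 3.58 ± 0.48 on the same scale (adjusted p = 2.82e-06 and 1.18e-07).

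Csf3r, the receptor for granulocyte colony-stimulating factor, was at 289, 312 and 312 CPM in MPP2-labelled libraries, against 50.5, 51.2 and 49.2 CPM in MPP4-labelled libraries (log2 fold change 2.60 ± 0.13, adjusted p = 8.03e-20). Spi1, which encodes PU.1, a factor of both myeloid and lymphoid lineages, was at 188, 238 and 221 CPM in MPP2-labelled libraries, against 34.7, 51.2 and 50.6 CPM in MPP4-labelled libraries (2.24 ± 0.17, adjusted p = 1.23e-14). Csf2rb, the shared β chain of the GM-CSF and interleukin-3 receptors, was at 198, 213 and 201 CPM in MPP2-labelled libraries, against 70.5, 62.1 and 53.0 CPM in MPP4-labelled libraries (1.72 ± 0.15, adjusted p = 3.76e-12). No MPP4-labelled library reached an MPP2-labelled one for any of these 3 genes. Dendritic cell and MHC class II genes had 7 of 16 tested members higher and 1 lower, and 3 and 0 of 15 after subtraction. Beside this list, 16.6% of all genes tested were higher and 10.7% lower, and 7.85% and 3.06% after subtraction. Among its members Tcf4, the factor of plasmacytoid dendritic cells, was at 809, 832 and 867 CPM in MPP2-labelled libraries, against 350, 367 and 357 CPM in MPP4-labelled libraries (1.22 ± 0.08, adjusted p = 7.25e-16).

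Megakaryocyte and platelet genes were mostly lower in MPP2-labelled libraries. Of 37 genes listed, 36 were in the table and 30 were tested, of which 4 were higher, 18 lower and 8 not called, with a median log2 fold change of -0.892, also with the 4 genes of at most 3 counts per library in a group set to 3 counts. After subtraction, 2 were higher and 15 lower of 29. The marker Itga2b is among the 18 lower genes, and this list too was chosen with earlier results of these data known. The shares over all genes were 16.6% higher and 10.7% lower, and 7.85% and 3.06% after subtraction. The summed level was 3131 to 3265 CPM in MPP2-labelled and 3297 to 3441 CPM in MPP4-labelled libraries.

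Among surface and granule genes, Gp5 was at 0.624, 0.576 and 0 CPM in WT MPP2-labelled libraries, against 14.9, 11.8 and 8.20 CPM in WT MPP4-labelled libraries. Treml1, a receptor kept in platelet granules, was at 0.624, 0 and 0.319 CPM in MPP2-labelled libraries, against 22.7, 18.1 and 11.3 CPM in MPP4-labelled libraries. Both were at 3 or fewer counts in every MPP2-labelled library, so no fold is given, and both were called (adjusted p = 9.16e-05 and 2.92e-06). Pf4 (platelet factor 4) and Tubb1 (the platelet tubulin), chosen after their values were seen, had 1, 0 and 0 counts and 0 counts throughout in MPP2-labelled libraries. In MPP4-labelled libraries Pf4 had 11, 3 and 22 counts and Tubb1 8, 11 and 20 counts. Both were called as deposited (adjusted p = 0.0341 for Pf4 and 0.00201 for Tubb1) and neither after subtraction (adjusted p = 0.164 and 0.0684); the call of Pf4 was also lost without WT MPP2 replicate 2 or 3 or WT MPP4 replicate 1 or 3 (adjusted p = 0.0525 to 0.136). Vwf, which encodes the clotting protein von Willebrand factor and also marks platelet-biased stem cells, was at 34.0, 25.1 and 22.3 CPM in MPP2-labelled libraries, against 113, 119 and 100.1 CPM in MPP4-labelled libraries. Vwf fell by 2.03 ± 0.19 on the log2 scale (adjusted p = 6.26e-12), with background at 50.4% of its counts with the MPP2 label and 25.5% with the MPP4 label.

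Among regulators, Gfi1b, a repressor needed for megakaryocyte and erythroid maturation, was at 40.3, 38.6 and 38.6 CPM in MPP2-labelled libraries, against 112, 145 and 131 CPM in MPP4-labelled libraries (log2 fold change -1.72 ± 0.19, adjusted p = 8.49e-10). Zfpm1, the GATA1 partner FOG1, was at 119, 102 and 85.4 CPM in MPP2-labelled libraries, against 252, 255 and 282 CPM in MPP4-labelled libraries (-1.36 ± 0.13, adjusted p = 1.31e-11). The 3 MPP2-labelled libraries were below all MPP4-labelled ones for both genes. The 4 listed genes called higher were Fli1, Plek, Slc14a1 and Nfe2. Fli1, an ETS factor of megakaryocytes that is also widely expressed in blood cells, was at 1338, 1277 and 1343 CPM in MPP2-labelled libraries, against 764, 663 and 688 CPM in MPP4-labelled libraries (0.90 ± 0.06, adjusted p = 3.88e-15). Nfe2, a factor of platelet release, was at 171, 141 and 132 CPM in MPP2-labelled libraries, against 103, 93.3 and 116 CPM in MPP4-labelled libraries (0.51 ± 0.14, adjusted p = 0.00416). Plek, Slc14a1 and Nfe2 were not called after subtraction (adjusted p = 0.221, 0.793 and 0.9), and Fli1 was (0.45, adjusted p = 1.55e-05). Slc14a1 and Nfe2 also lost their calls under median-of-ratios scaling (adjusted p = 0.053 and 0.103).

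Erythroid genes were lower in MPP2-labelled libraries with no listed member called higher. Of 29 tested, 18 were lower, 0 higher and 11 not called, with a median log2 fold change of -1.54, and 16 were lower after subtraction. Over all genes tested, 10.7% were lower, and 3.06% after subtraction. At an unadjusted p under 0.05, edgeR also had 0 members higher and 19 lower, and DESeq2 and limma-voom called 0 higher, and 24 and 19 lower. The list summed to 761 to 767 CPM in MPP2-labelled and 2144 to 2188 CPM in MPP4-labelled libraries.

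Car1, which encodes a carbonic anhydrase of early erythroid progenitors, was at 19.0, 25.6 and 21.0 CPM in WT MPP2-labelled libraries, against 349, 346 and 290.1 CPM in WT MPP4-labelled libraries (log2 fold change -3.90 ± 0.20, adjusted p = 8.64e-20). Gata1, the factor that drives erythroid and megakaryocyte fate, was at 3.74, 3.17 and 1.59 CPM in MPP2-labelled libraries, against 53.8, 28.5 and 41.7 CPM in MPP4-labelled libraries (-3.84 ± 0.53, adjusted p = 2.08e-07). Epor was at 3.12, 2.02 and 3.19 CPM in MPP2-labelled libraries, against 20.3, 28.2 and 26.3 CPM in MPP4-labelled libraries (-3.16 ± 0.56, adjusted p = 2.02e-05). For these 3 genes no MPP2-labelled library reached an MPP4-labelled one. Mfsd2b, the sphingosine-1-phosphate exporter of red cells and platelets, was at 13.7, 22.2 and 11.2 CPM in MPP2-labelled libraries, against 212, 189 and 199 CPM in MPP4-labelled libraries (-3.66 ± 0.26, adjusted p = 4.68e-15). Ermap, an erythroid membrane protein, was at 31.8, 16.7 and 30.6 CPM in MPP2-labelled libraries, against 187, 212 and 220.4 CPM in MPP4-labelled libraries. The water channel gene Aqp1 was at 7.18, 16.1 and 15.6 CPM in MPP2-labelled libraries, against 109, 79.1 and 108 CPM in MPP4-labelled libraries. Neither gene overlapped between the groups, and both were called (adjusted p = 1.08e-11 for Ermap and 6.12e-10 for Aqp1). Among the adult globins, Hba-a1 was called lower, with a log2 fold change of -0.719 (adjusted p = 0.0249), and not called without WT MPP2 replicate 1, 2 or 3 or WT MPP4 replicate 2 (adjusted p = 0.0507 to 0.128). Hbb-bs (-0.382) and Hbb-bt (0.166) were not called as deposited, and after subtraction Hba-a1 and Hbb-bs were called lower (adjusted p = 0.00128 and 4.91e-05). Globin copies share reads, so these values are uncertain.

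**Figure D4:**
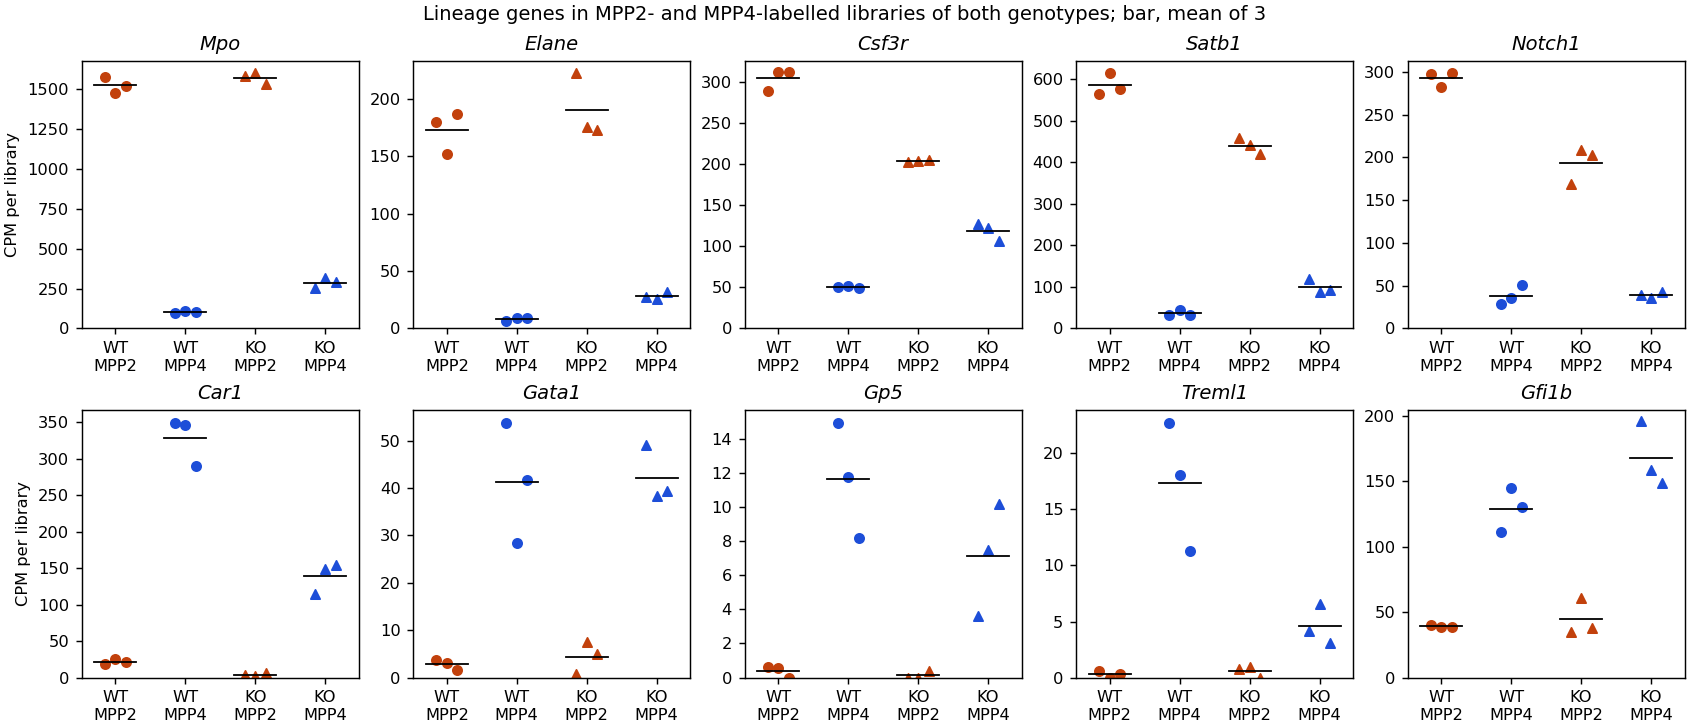
Level of 10 lineage genes in CPM in each MPP2- and MPP4-labelled library of both genotypes, with a bar at the mean of 3 libraries; the upper row holds granulocyte and lymphoid genes and the lower row erythroid and platelet genes. In both genotypes the upper genes lie higher and the lower genes lie lower in MPP2-labelled than in MPP4-labelled libraries.

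Stem cell genes did not move as a block. Of 26 tested, 10 were higher, 6 lower and 10 not called, and 8 and 7 were called after subtraction, with a list median that changed sign (0.288 as deposited, -0.048 after subtraction). Shares over all genes tested were smaller both ways, at 16.6% higher and 10.7% lower, and 7.85% and 3.06% after subtraction. Hlf, a factor of stem cells and early progenitors, was at 905, 934 and 905 CPM in MPP2-labelled libraries, against 240.0, 273 and 261 CPM in MPP4-labelled libraries (log2 fold change 1.83 ± 0.06, adjusted p = 1.61e-25). Mecom, which encodes the stem cell factor EVI1, was at 922, 1046 and 1060 CPM in MPP2-labelled libraries, against 608, 601 and 639 CPM in MPP4-labelled libraries (0.71 ± 0.06, adjusted p = 9.45e-13). That change was near the median of 0.69 over the 870 genes with background under 5% in both groups. Mecom was still called higher after subtraction. Lower members, besides Slamf1 and Vwf, included Gata2, the factor of stem cells, mast cells and megakaryocytes. Gata2 was at 52.7, 52.4 and 67.6 CPM in MPP2-labelled libraries, against 128, 214 and 142 CPM in MPP4-labelled libraries (-1.49 ± 0.17, adjusted p = 2.87e-09). Tek, the angiopoietin receptor of quiescent stem cells, was at 24.7, 11.8 and 26.8 CPM in MPP2-labelled libraries, against 54.1, 78.8 and 66.3 CPM in MPP4-labelled libraries (-1.66 ± 0.26, adjusted p = 1.96e-06), with background at 63.7% of its counts with the MPP2 label and 41.3% with the MPP4 label.

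The surface proteins used to sort such cells gave a mixed count. Of 10 genes, 7 were higher and 2 lower, Itga2b and Slamf1 being the lower ones, and after subtraction 2 (Flt3 and Cd34) were higher and 2 lower. Cd48, an adhesion molecule that both MPP2 and MPP4 cells carry, was at 95.8, 79.8 and 80.7 CPM in MPP2-labelled libraries, against 34.4, 35.03 and 42.7 CPM in MPP4-labelled libraries (log2 fold change 1.19 ± 0.30, adjusted p = 0.00194), and was not called after subtraction (0.86, adjusted p = 0.259). Ly6a (Sca-1), which stem and multipotent progenitor cells carry, had a log2 fold change of 1.18 and was not called after subtraction (adjusted p = 0.0627). Kit, the stem cell factor receptor, had one of 0.24, which was 0.026 under median-of-ratios scaling (adjusted p = 0.827) and -0.23 after subtraction (adjusted p = 0.0533), so no direction is given for it; its call was also lost without WT MPP2 replicate 3 and without WT MPP4 replicate 1 (adjusted p = 0.059 and 0.179). General blood cell genes split as well, with 6 of 9 tested higher and 2 lower, and 4 and 3 after subtraction. Beside both lists, 16.6% of all genes tested were higher and 10.7% lower, and 7.85% and 3.06% after subtraction. Lmo2, an adaptor of stem and erythroid factor complexes, was at 7.49, 11.2 and 13.7 CPM in MPP2-labelled libraries, against 54.7, 38.6 and 47.2 CPM in MPP4-labelled libraries (-2.11 ± 0.30, adjusted p = 4.44e-07). Runx1, a factor of blood stem cell emergence, was at 3788, 3757 and 3754 CPM in MPP2-labelled libraries, against 2213, 2205 and 2239 CPM in MPP4-labelled libraries (0.76 ± 0.05, adjusted p = 4.6e-16). A change of that size was near the median of 0.69 over the 870 genes with background under 5% in both groups. Runx1 was still called higher after subtraction.

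Cytokine and chemokine receptor genes had 18 of 32 tested members higher and 2 lower, and 11 and 2 of 30 after subtraction. Il1r1, the signalling receptor for interleukin-1, was at 454, 409 and 513 CPM in MPP2-labelled libraries, against 66.1, 49.8 and 41.7 CPM in MPP4-labelled libraries (log2 fold change 3.12 ± 0.21, adjusted p = 2.84e-16). Cxcr4, the receptor that retains progenitors in marrow, was at 170, 155 and 151 CPM in MPP2-labelled libraries, against 35.3, 40.5 and 53.6 CPM in MPP4-labelled libraries (1.88 ± 0.17, adjusted p = 3.41e-12). For both receptors all MPP2-labelled libraries were higher. Il1rl1, the interleukin-33 receptor of mast cells and basophils, ran the other way, at 25.3, 17.0 and 19.5 CPM in MPP2-labelled libraries, against 97.1, 101 and 125 CPM in MPP4-labelled libraries (-2.39 ± 0.22, adjusted p = 1.3e-11). Of 18 mast cell, basophil and eosinophil genes tested, 1 was higher and 3 were lower, and 0 and 3 after subtraction. The shares over all genes, to set beside both lists, were 16.6% higher and 10.7% lower, and 7.85% and 3.06% after subtraction.

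Immediate early genes, which respond within minutes to stimuli and to cell handling, had 14 of 24 tested members higher and 0 lower, with a median of 1.21 (8 higher after subtraction, median 0.888). DESeq2 and limma-voom called 12 and 16 higher and 0 lower, and edgeR had 15 and 0 at an unadjusted p under 0.05. Beside this list and the interferon list below, 16.6% of all genes tested were higher (7.85% after subtraction). Of the 870 genes with background under 5% in both groups, 519 were higher as deposited. Egr1 was at 483, 478 and 476 CPM in MPP2-labelled libraries, against 214, 171 and 178 CPM in MPP4-labelled libraries (log2 fold change 1.35 ± 0.17, adjusted p = 1.95e-08). Dusp5, a phosphatase induced by ERK signalling, was at 184, 161 and 160 CPM in MPP2-labelled libraries, against 28.7, 28.5 and 28.4 CPM in MPP4-labelled libraries (2.56 ± 0.20, adjusted p = 4.21e-14). How handling entered these levels was not tested. Type I interferon response genes had 17 of 32 tested members higher and 0 lower (9 and 0 after subtraction; 17 and 0 in both DESeq2 and limma-voom; 20 and 0 in edgeR at an unadjusted p under 0.05), and Oas2, an antiviral sensor of double-stranded RNA, was at 301, 205 and 268 CPM in MPP2-labelled libraries, against 52.9, 49.5 and 66.3 CPM in MPP4-labelled libraries (log2 fold change 2.20 ± 0.17, adjusted p = 5.94e-14).

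Cell cycle genes depended on the background. Of 36 DNA replication genes tested, 15 were higher and 0 lower as deposited, with a median log2 fold change of 0.666, and 3 and 0 after subtraction, with a median of 0.289. Of 31 G2 and mitosis genes, 6 were higher and 0 lower as deposited, and 0 higher and 1 lower after subtraction, with medians of 0.352 and -0.0806. The mitosis counts were near or below the shares over all genes (16.6% higher and 10.7% lower, and 7.85% and 3.06% after subtraction). Mki67, which encodes the proliferation antigen Ki-67, was at 1450, 1465 and 1454 CPM in MPP2-labelled libraries, against 1115, 1029 and 1127 CPM in MPP4-labelled libraries (log2 fold change 0.42 ± 0.07, adjusted p = 2.32e-06), and its direction flipped after subtraction (-0.07, adjusted p = 0.553). At an unadjusted p under 0.05, edgeR had 23 replication genes and 9 mitosis genes higher and 0 of either lower; DESeq2 called 9 and 4 higher and 0 and 1 lower, and limma-voom 19 and 8 higher and 0 lower. No direction is given for mitosis genes.

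The most abundant genes that changed at least 2-fold without overlap were chosen by level. Among higher ones, Etv6, an ETS repressor that stem cells need, was at 3950, 4000 and 3854 CPM in MPP2-labelled libraries, against 1731, 1674 and 1711 CPM in MPP4-labelled libraries (log2 fold change 1.21 ± 0.05). Aff3, a nuclear factor of lymphoid tissue, was at 3696, 3547 and 3682 CPM in MPP2-labelled libraries, against 1573, 1528 and 1727 CPM in MPP4-labelled libraries (1.18 ± 0.06). Rnf220, a ubiquitin ligase, was at 3191, 3325 and 3382 CPM in MPP2-labelled libraries, against 786, 777 and 685 CPM in MPP4-labelled libraries (2.14 ± 0.07). All 3 were called, with adjusted p of 1.05e-22, 5.3e-21 and 4.17e-27, and remained higher after subtraction (0.74, 0.76 and 1.72). Among lower ones, Dach1, a transcription cofactor, was at 261, 249 and 295 CPM in MPP2-labelled libraries, against 722, 632 and 714 CPM in MPP4-labelled libraries (-1.36 ± 0.09, adjusted p = 1.55e-16). Slc25a21, a mitochondrial carrier, was at 101.4, 110.3 and 100.7 CPM in MPP2-labelled libraries, against 725, 618 and 682 CPM in MPP4-labelled libraries (-2.70 ± 0.13, adjusted p = 1.89e-20). Plxnc1, a semaphorin receptor, was at 266, 289 and 259 CPM in MPP2-labelled libraries, against 588, 610 and 593 CPM in MPP4-labelled libraries (-1.14 ± 0.11, adjusted p = 7.12e-11).

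Markers of other cells that a sorted sample could hold were also measured. Macrophage genes had 1 of 12 tested members higher and 3 lower, with 0 called either way after subtraction, and summed to 175 to 228 CPM in MPP2-labelled and 248 to 290 CPM in MPP4-labelled libraries. Stromal and endothelial genes had 3 of 18 higher and 6 lower, and 1 and 1 of 16 after subtraction, with sums of 483 to 523 CPM in MPP2-labelled and 531 to 594 CPM in MPP4-labelled libraries. For comparison, 16.6% of all genes tested were higher and 10.7% lower, and 7.85% and 3.06% after subtraction. T and NK genes summed to 205 to 216 CPM in MPP2-labelled and 203 to 310 CPM in MPP4-labelled libraries. Their part in the lineage differences was not tested.

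In the KO-labelled libraries, 1830 genes (8.33%) were higher and 1580 (7.19%) lower in MPP2-labelled than in MPP4-labelled libraries, and after subtraction 632 (3.41%) and 448 (2.42%). Of genes higher in WT, 36.6% were also higher there (73.0% of those higher in KO), and of genes lower in WT, 33.8% (50.2% of those lower in KO). Over all 21964 genes tested, 1335 were higher and 793 lower in both genotypes. Of 25 tested lymphoid priming genes, 13 were higher in both genotypes, and of 31 granulocyte and monocyte genes 16. Of 30 megakaryocyte and platelet genes, 14 were lower and 1 higher in both genotypes. Of 29 erythroid genes, 14 were lower in both. By the receptor estimate, background was 9.36 ± 0.648% of counts in KO MPP2-labelled and 18.4 ± 0.38% in KO MPP4-labelled libraries (SD, n = 3). Background was thus lower with the MPP2 label in both genotypes, and the counts of genes shared by both genotypes are as deposited. Flt3 was at 625, 525 and 481 CPM in KO MPP2-labelled libraries, against 75.8, 86.0 and 91.9 CPM in KO MPP4-labelled libraries (log2 fold change 2.68 ± 0.12, adjusted p = 3.09e-21). Gata1 was at 0.776, 7.41 and 4.87 CPM in KO MPP2-labelled libraries, against 49.1, 38.3 and 39.3 CPM in KO MPP4-labelled libraries (-3.24, adjusted p = 7.42e-06). The groups did not overlap for either gene in either genotype.

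**Figure D5:**
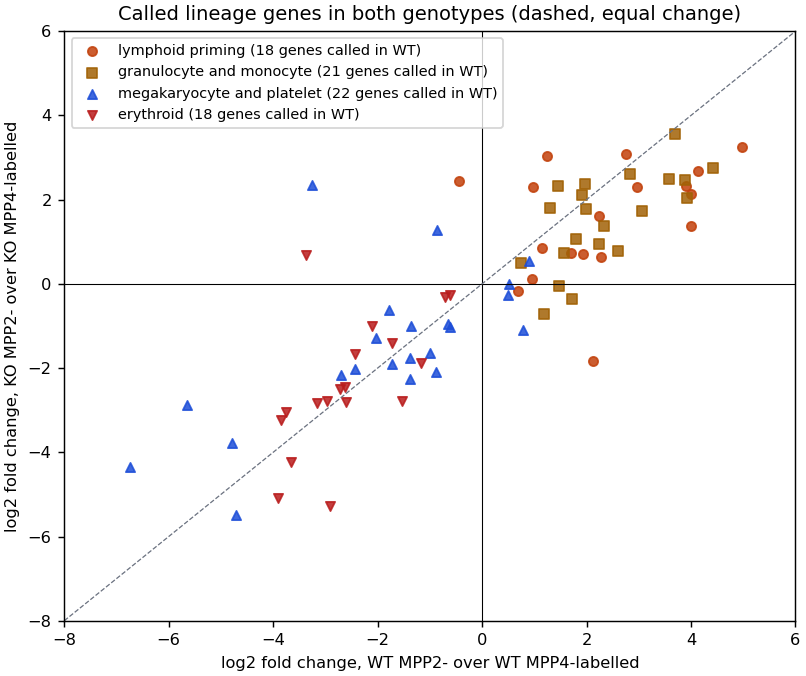
Log2 fold change of MPP2-labelled over MPP4-labelled libraries in KO (vertical axis) against the same in WT (horizontal axis), for lineage genes called in WT; the dashed line marks equal change and the 2 axes share no library. In both genotypes 13 of 25 tested lymphoid priming and 16 of 31 granulocyte and monocyte genes were called higher. Called lower in both were 14 of 30 megakaryocyte and platelet and 14 of 29 erythroid genes. Over all 21964 genes tested, 1335 were higher and 793 lower in both genotypes.

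The size of the difference was itself tested between genotypes, as the WT log2 fold change minus the KO one. It was called for 1095 genes, with 812 (3.7%) more positive and 283 (1.29%) more negative in WT, and 514 after subtraction. Flt3, Dntt and Cd34 differed more between the labels in WT, by 1.45 ± 0.17, 1.74 ± 0.30 and 1.28 ± 0.26 (adjusted p = 2.23e-08, 7.94e-05 and 0.00117). For Slamf1 and Itga2b the difference between genotypes did not pass (1.85 ± 0.59, adjusted p = 0.0589, and -0.53 ± 0.60, adjusted p = 0.714), which does not show that the genotypes were alike. For Slamf1 it passed without WT MPP4 replicate 3, KO MPP2 replicate 1 or KO MPP4 replicate 2 (adjusted p = 0.0379, 0.000605 and 0.0418).

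Several genes took opposite directions in the genotypes. Il1rl1 was at 287, 332 and 331 CPM in KO MPP2-labelled libraries, against 41.3, 34.8 and 45.5 CPM in KO MPP4-labelled libraries, the reverse of its order in WT (difference -5.35 ± 0.31, adjusted p = 4.76e-17). Inpp4b, a phosphoinositide phosphatase, was at 231, 238 and 221 CPM in WT MPP2-labelled libraries, against 536, 420 and 557 CPM in WT MPP4-labelled libraries. In the KO-labelled libraries it was at 1483, 1556 and 1652 CPM with the MPP2 label, against 367, 289 and 374 CPM with the MPP4 label (difference -3.32 ± 0.15, adjusted p = 2.04e-20). Ighm was at 8630, 8155 and 8313 CPM in KO MPP2-labelled libraries, against 1465, 1504 and 1636 CPM in KO MPP4-labelled libraries (difference -2.89 ± 0.15, adjusted p = 1.35e-18).

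Within the megakaryocyte and platelet list, Thbs1 and Itgb3 were called lower in WT and higher in KO-labelled libraries, and Plek the reverse; they were chosen after their values were seen. The WT call of Itgb3 was lost without WT MPP2 replicate 2 (-0.70, adjusted p = 0.0646), and that of Plek after subtraction (0.43, adjusted p = 0.221). Itgb3, the partner chain of αIIb in the platelet fibrinogen receptor, was at 42.4, 26.5 and 33.8 CPM in WT MPP2-labelled libraries, against 68.4, 64.3 and 55.0 CPM in WT MPP4-labelled libraries. In the KO-labelled libraries it was at 81.5, 79.9 and 83.6 CPM with the MPP2 label, against 22.3, 30.9 and 47.3 CPM with the MPP4 label. Thbs1, a matrix protein of platelet granules, had 3, 4 and 1 counts in WT MPP2-labelled libraries, against 12, 24 and 42 counts in WT MPP4-labelled libraries. In KO it had 44, 55 and 21 counts in MPP2-labelled libraries, against 10, 16 and 2 counts in MPP4-labelled libraries. Plek, the platelet kinase substrate pleckstrin, was at 217, 201 and 234 CPM in WT MPP2-labelled libraries, against 123, 129 and 127 CPM in WT MPP4-labelled libraries. In the KO-labelled libraries it was at 36.9, 30.3 and 35.2 CPM with the MPP2 label, against 77.8, 71.6 and 69.3 CPM with the MPP4 label. The WT and KO changes differed for Itgb3 (-2.16 ± 0.35, adjusted p = 3.04e-05), Thbs1 (-5.62 ± 0.90, adjusted p = 2.34e-05) and Plek (1.88 ± 0.26, adjusted p = 1.18e-06).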

How the data were processed

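RNA libraries of sorted mouse cells were sequenced in bulk; groups and replicate numbers come from the titles and each column was matched through the description. The authors deposited raw read counts per gene (56748 genes), with no normalization. The submitters' processing notes name the build mm39, DESeq2 and SAMtools 1.12 without saying what each did. The aligner, counter, annotation and strand setting are not given in the sources used here. The members and gene lists were chosen with earlier results of these data known.

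Genes passing filterByExpr on 8 groups (21964) were fitted in edgeR 4.0.16 (R 4.3.3) with TMM scaling and a mean per group over all 24 libraries (quasi-likelihood test; 16 residual degrees of freedom; common BCV, the biological coefficient of variation, 0.393), adjusted by Benjamini-Hochberg over all genes and called under 0.05. SE is the size of the log2 fold change divided by the root of F. CPM are on scaled totals, and their precision follows the total counts, in which counting error sets a limit of 3 counts for an absent gene. Background came from 1490 receptor genes times gene span (GENCODE M21, 52125 identifiers matched), subtracted, rounded and set to at least 0. Genes were named by a rule: the 5 markers, the 12 largest changes each way of at least 10 CPM without overlap, the 6 most abundant each way, up to 6 members per list by p and any called against its list, and 6 by difference between genotypes; not all are described, and some genes that the lists count are not reported here. On simulated data over 20758 genes, 7 of 100 genes changed 1.5-fold and 34 of 100 changed 3-fold were recovered, with 4 false calls. No other gene was changed there and background did not differ, so these counts do not show how many changes the real comparison recovers. Alternatives were median-of-ratios factors, 2 other filters, DESeq2 1.42.0, limma-voom (limma 3.58.1), only the compared libraries, a replicate block, each library left out and background subtraction.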

Additional observations from a re-analysis of the deposited data

Results flagged for a closer look

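The WT and KO-labelled comparisons of MPP2- with MPP4-labelled libraries differed for the genes below, each by edgeR's test of the WT log2 fold change minus the KO one; of 168 genes taken by the naming rule, 85 passed that test. The difference was 1.45 for Flt3, 1.74 for Dntt and 1.28 for Cd34, whose log2 fold changes were 4.13, 4.99 and 2.43 in WT and 2.68, 3.24 and 1.15 in KO, so the direction was shared and the size was larger in WT. It was 1.88 for Plek (0.78 in WT, -1.10 in KO), -2.16 for Itgb3 (-0.87 in WT, 1.29 in KO) and -5.62 for Thbs1 (-3.26 in WT, 2.36 in KO). It was -5.35 for Il1rl1, -3.32 for Inpp4b and -2.89 for Ighm, each lower in WT and higher in KO-labelled libraries.

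Among immunoglobulin V segments, the difference was -17.76 for Ighv5-16, -10.14 for Igkv19-93 and -9.04 for Igkv15-103; these fitted values depend on a prior count where a group is near 0 and are no bounds. Ighv5-16 was at 0.624, 0.288 and 0.638 CPM in WT MPP2-labelled libraries, against 141, 122 and 138 CPM in WT MPP4-labelled libraries, and at 512, 479 and 461 CPM in KO MPP2-labelled libraries, against 0, 0.299 and 1.24 CPM in KO MPP4-labelled libraries. Whether these segments come from few B lineage clones was not tested.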

How the results depend on the processing

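The 17 lymphoid priming genes higher and the 18 megakaryocyte and platelet genes lower stayed within 1.5 times of those counts in every alternative run (13 to 19 and 14 to 20). The 3643 genes higher became 1452 after background subtraction and 2426 with median-of-ratios factors, and the 2344 lower became 3922 in DESeq2, 3605 in limma-voom, 3676 with only the compared libraries and 567 after subtraction. The 1095 genes whose difference depended on genotype became 684 with only the compared libraries and 514 after subtraction. Lymphoid priming genes lower were 3 in place of 1 with median-of-ratios factors, the 5 CPM filter, DESeq2, limma-voom and only the compared libraries. Megakaryocyte and platelet genes higher were 2 in place of 4 after subtraction and with median-of-ratios factors. With each library left out, higher genes ranged from 3086 to 3312, lower from 1588 to 1892, the genotype difference from 813 to 1076, lymphoid genes higher were 17 and lower 1 to 2 (2 without WT MPP4 replicate 2), and megakaryocyte and platelet genes higher 4 to 5 and lower 14 to 17. Of 91 results of named genes, 74 kept direction and call in every alternative run. Mki67 and Kit reversed after subtraction (-0.0715 and -0.23), and the uncalled genotype difference of Itga2b reversed in limma-voom (0.032) and ranged from -0.963 to 1.05 with each library left out (above 0 without KO MPP2 replicate 2). Replicate numbers did not pair the samples (same-number correlations of 0.00899, -0.00193 and -0.0116 over 14626 genes); with the replicate block, 3641 genes were higher, 2256 lower and 1054 differed by genotype, and lists gave 17 and 1 (lymphoid) and 4 and 16 (megakaryocyte) higher and lower. The cause of these changes was not tested. Depth limits genes near 3 counts.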

Other observations

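Glycolysis and hypoxia genes had 12 of 24 tested members higher and 1 lower in WT MPP2-labelled than in WT MPP4-labelled libraries (edgeR, adjusted p under 0.05), and 6 and 2 after background subtraction. Over all genes tested, 16.6% were higher and 10.7% lower, and 7.85% and 3.06% after subtraction. Of the 870 genes with background under 5% in both groups, 519 were higher and 39 lower as deposited. Gapdh, a glycolytic dehydrogenase, was at 515, 485 and 512 CPM in MPP2-labelled libraries, against 206, 209 and 219 CPM in MPP4-labelled libraries, with a log2 fold change of 1.25 ± 0.10 (adjusted p = 3.79e-14) and background under 0.5% of its counts in both groups. Pkm, the last kinase of the pathway, was at 146, 144 and 137 CPM in MPP2-labelled libraries, against 40.1, 47.9 and 40.7 CPM in MPP4-labelled libraries (1.73 ± 0.16, adjusted p = 5.1e-12). Hk1, the first kinase, was the member called lower, at 204, 237 and 256 CPM in MPP2-labelled libraries, against 336, 319 and 337 CPM in MPP4-labelled libraries (-0.51 ± 0.11, adjusted p = 0.000483). Of 24 cholesterol synthesis genes, 2 were higher and 0 lower, and at an unadjusted p under 0.05 4 were higher and 0 lower. After subtraction 1 of 23 was higher and 0 lower. The called counts were below the shares over all genes.

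Homeobox genes of the HOXA cluster, which keep progenitors immature, lay higher with the MPP2 label where they were called. Hoxa9 was at 35.3, 32.3 and 26.1 CPM in MPP2-labelled libraries, against 2.69, 5.75 and 6.15 CPM in MPP4-labelled libraries (2.68 ± 0.39, adjusted p = 4.42e-07). Hoxa7 was at 62.1, 53.0 and 69.5 CPM in MPP2-labelled libraries, against 7.77, 18.1 and 14.0 CPM in MPP4-labelled libraries (2.20 ± 0.26, adjusted p = 5.09e-09). The list of 11 tested genes gave 3 higher and 1 lower, and 4 and 1 of 8 after subtraction. Shares over all genes tested were 16.6% higher and 10.7% lower, and 7.85% and 3.06% after subtraction. Integrin and adhesion genes had 7 of 23 tested members higher and 2 lower, against 16.6% higher and 10.7% lower over all genes tested. The count lower depended on the processing, with 6 higher and 4 lower after subtraction, and 7 and 5 both with median-of-ratios size factors and in DESeq2. The 2 members called lower as deposited were Itga2b and Itgb3. Pecam1, the junction protein CD31, was at 508, 575 and 509 CPM in MPP2-labelled libraries, against 114, 122 and 91.2 CPM in MPP4-labelled libraries (2.28 ± 0.15, adjusted p = 6.56e-16).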
